A study of Mus musculus with 16 samples.

Results

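Astrocyte identity transcription factors were followed in mouse striatum after clozapine N-oxide (CNO), a synthetic ligand of designer receptors. The set holds 9 genes, Sox9, Sox2, Nfia, Nfib, Nfix, Rorb, Lhx2, Pax6 and Zbtb20, chosen by symbol from the 17097 genes of the deposited libraries. All 9 were present and all 9 passed the filter on low values in every comparison. The mice were wild-type C57BL/6J males of 63 days, and the subject given by the series title is Gi signalling in astrocytes. Whole striata were taken 2 hours after the injection. In 4 mice this was CNO at 1 mg/kg, and in 4 mice it was vehicle. Each mouse gave RNA on tagged astrocyte ribosomes, captured by immunoprecipitation (IP) of a hemagglutinin tag, and RNA of the cleared lysate (input). This gives 4 groups of 4 libraries, IP after CNO or vehicle and input after CNO or vehicle, with replicates numbered 2 to 5 as in the titles. The series text counts 4 mice and the titles carry 8 mouse codes; each code was taken as an animal. If some replicates came from one animal, the spread behind the p-values is partly technical. Neither the receptor for CNO nor the carrier and promoter of the ribosomal tag is named by the labels, and no group with CNO and without a receptor is analysed here, so effects of CNO by itself cannot be told apart from those of the receptor.

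Astrocytes are made from neural precursors under a small group of DNA-binding proteins that the mature cells go on expressing. Sox9, with an HMG box, starts gliogenesis and then induces Nfia, and in the developing mouse spinal cord both proteins act together on astrocyte genes such as Apcdd1 and Mmd2. Sox2 maintains neural stem cells and is kept in adult astrocytes, Lhx2 and Pax6 are homeodomain proteins of forebrain progenitors, Rorb is an orphan nuclear receptor best known from neurons of the granular layer of the cortex, and Zbtb20 is a zinc finger repressor that also shapes hippocampal neurons. None of the 9 is exclusive to astrocytes, and the NFI proteins and Zbtb20 are made by many neurons as well.

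The 9 genes are protein coding and lie at separate places in GRCm38, with Nfia and Nfib both on chromosome 4 and Lhx2 and Pax6 both on chromosome 2. Sox9 is at chr11:112782224-112787760 on the plus strand and Sox2 at chr3:34650405-34652461 on the plus strand, inside the span of the long non-coding Sox2ot. Nfia is at chr4:97772734-98118874 (plus), Nfib at chr4:82290173-82705750 (minus) and Nfix at chr8:84699876-84800344 (minus). Rorb is at chr19:18930605-19111196 (minus), Lhx2 at chr2:38339281-38369733 (plus), Pax6 at chr2:105668900-105697364 (plus) and Zbtb20 at chr16:42875881-43642602 (plus). Whether the authors' counting used strand is not given in the sources used here. In the GENCODE M21 annotation 137 exonic bases of Nfix are shared with G430095P16Rik and 4 with Lyl1, both on the other strand, Nfia shares 4 with E130114P18Rik, Zbtb20 shares 104 bases with Gm9968 and 83 with Mir568, and Sox2, Nfib, Rorb, Lhx2 and Pax6 share none with another gene.

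RefSeq promoter windows (GRCm38.p6, from 250 bases before to 50 after a start) were found for 7 of the 9 genes, 13 windows in all. The windows of Rorb, the one gene of the set that was called higher after CNO, and of Pax6, the gene with the lowest CNO ratio, are shown here, because they stand at the ends of the range of the responses described below. Each line gives the 250 bases before the start, 5′ to 3′ on the strand of the gene, with matches to the cAMP response element TGACGTCA or the AP-1 site TGANTCA in capitals. The second Rorb window, at the annotated start of the gene, and the second Pax6 window hold neither.
Pax6 first window, chr2:105668646-105668895, plus strand: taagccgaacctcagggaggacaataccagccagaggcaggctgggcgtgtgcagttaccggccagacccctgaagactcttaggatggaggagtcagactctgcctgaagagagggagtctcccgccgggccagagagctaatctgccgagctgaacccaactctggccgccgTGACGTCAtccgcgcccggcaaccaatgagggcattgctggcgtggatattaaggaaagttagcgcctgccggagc
Pax6 second window, chr2:105682213-105682462, plus strand: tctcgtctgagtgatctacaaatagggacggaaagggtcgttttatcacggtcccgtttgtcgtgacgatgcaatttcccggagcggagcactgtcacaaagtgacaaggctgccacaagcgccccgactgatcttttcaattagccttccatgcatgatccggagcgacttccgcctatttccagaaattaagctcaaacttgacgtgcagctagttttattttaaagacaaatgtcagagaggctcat
Rorb first window, chr19:19001118-19001367, minus strand: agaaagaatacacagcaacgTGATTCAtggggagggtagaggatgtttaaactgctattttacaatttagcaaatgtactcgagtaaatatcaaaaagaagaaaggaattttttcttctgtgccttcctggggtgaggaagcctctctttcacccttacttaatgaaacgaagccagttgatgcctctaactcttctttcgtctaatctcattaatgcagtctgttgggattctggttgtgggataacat
Rorb second window, chr19:19111197-19111446, minus strand: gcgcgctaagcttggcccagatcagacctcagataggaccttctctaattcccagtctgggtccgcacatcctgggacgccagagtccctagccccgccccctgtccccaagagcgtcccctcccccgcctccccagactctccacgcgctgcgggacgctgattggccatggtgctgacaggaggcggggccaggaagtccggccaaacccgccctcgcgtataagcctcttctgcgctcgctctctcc

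The cAMP response element in the first Pax6 window begins 76 bases before the start, and this octamer stood in 588 of 32851 mouse promoter windows of the same length (1.79%). The AP-1 match of the first Rorb window, TGATTCA, begins 230 bases before the start. A further AP-1 match lay in a window of Nfix, 81 bases before the start, and 7.81% of all windows held one. The core of SOX sites, ACAAT, was found on either strand in windows of Nfia, Nfix, Rorb and Pax6, 1 each, and in 31.0% of all windows. The NFI core TGCCAA was in none of the 13 windows and in 14.1% of all windows. Both strands were searched, and the motifs do not overlap each other in these windows. A match is a description of letters and not a bound site.

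Depth was 52074653 to 61540813 reads per IP library and 32751710 to 40331510 per input library, and each of the 9 genes had at least 130 reads in every library. Values are CPM, read counts scaled to the normalized size of the library, derived from the authors' log2 CPM. Log2 ratios, standard errors (SE) and p-values are from limma on the deposited log2 values, with n = 4 libraries per group. Adjusted p-values follow Benjamini and Hochberg over every gene of the comparison, and a gene passed, or was called, under 0.05. Summed CPM of 10 astrocyte markers was 31885 to 35329 in CNO IP and 30519 to 37025 in vehicle IP, against 3350 to 4233 in CNO input and 3320 to 3628 in vehicle input. Markers of some other cells also summed higher in IP. In CNO IP the 6 oligodendrocyte markers summed to 7476 to 9881 CPM, and in CNO input to 4351 to 6007 CPM. In vehicle IP they ran from 5622 (replicate 3) to 13255 CPM (replicate 5), and in vehicle input from 4949 to 6216 CPM (replicate 3). The 6 interneuron markers summed to 909 to 1074 CPM in IP and 192 to 240 CPM in input. Among these Pvalb was lower in IP of CNO mice (log2 ratio -0.78, adjusted p = 0.000628). The 5 ependymal markers summed to 171 to 309 CPM in IP and 34.7 to 57.1 CPM in input. Microglial markers summed lower in IP, to 19.9 to 38.7 CPM against 361 to 805 CPM in input. Neuron, medium spiny neuron, endothelial, mural and neuroblast sums were also lower in IP within each injection. The part of these cells in the values of the 9 genes was not tested.

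The first comparison asks how far each factor's RNA stands with the captured astrocyte ribosomes. All 9 factors were higher in IP than in input, in CNO mice and in vehicle mice, with median log2 ratios of 2.13 and 2.17. Over all genes 40.0% of 15801 were called higher and 35.1% lower in CNO mice, and 37.6% of 15903 higher and 37.3% lower in vehicle mice. The median over all genes was 0.04 in CNO mice and 0.00 in vehicle mice, and that of the 10 astrocyte markers was 2.90 in both. Bulk RNA cannot tell apart fewer cells of a type and less RNA per cell. With upper quartile scaling 39.9% of the calls were higher in CNO mice and with library totals alone 34.8%, against 53.2% as deposited. In vehicle mice these shares were 40.1%, 34.1% and 50.2%. The median of all genes was -0.18 and -0.27 in CNO mice under these scalings, and -0.16 and -0.26 in vehicle mice, and the 9 factors were called higher in IP under these and all other alternatives tried.

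**Figure D1:**
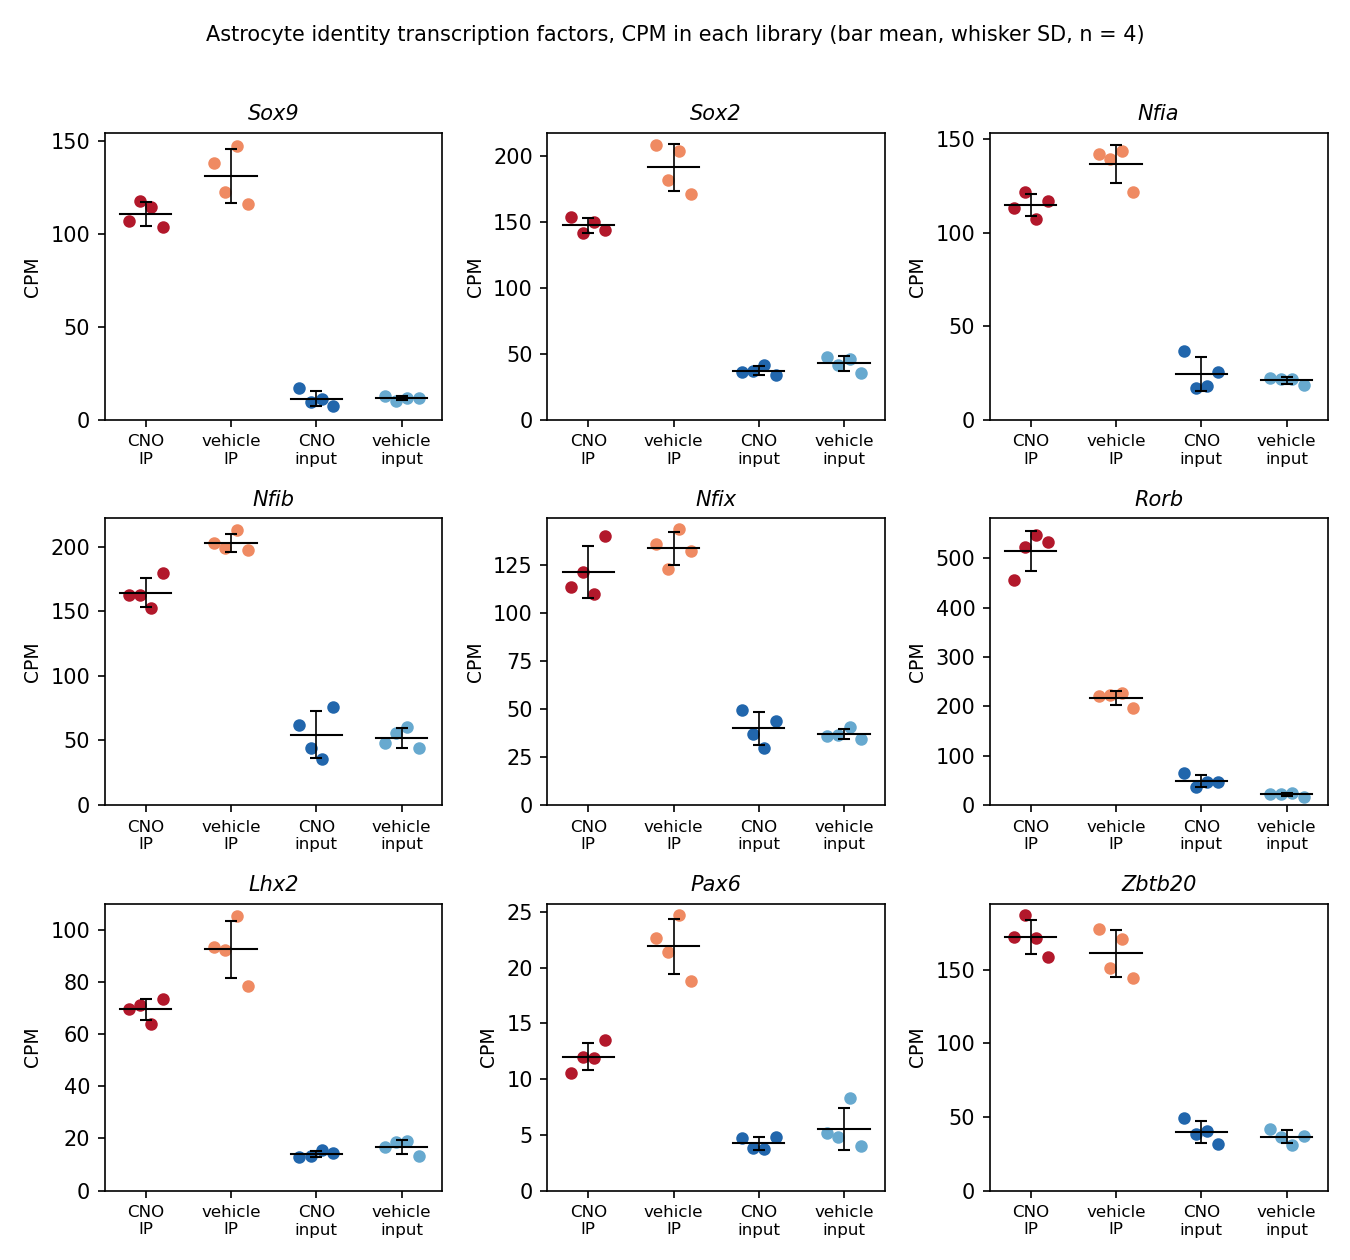
CPM of each factor in each of the 16 libraries, with CNO left of vehicle and IP left of input, a bar at the mean and whiskers of 1 SD (n = 4). All IP points of every factor lie above all of its input points. Such gaps were not counted over all genes, of which 40.0% (CNO mice) and 37.6% (vehicle mice) were called higher in IP. The lowest CNO IP point of Rorb is at 456 CPM while its highest vehicle IP point is at 226 CPM.

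Sox9 and Rorb led the set. Sox9 had 107, 118, 114 and 104 CPM in CNO IP, against 17.0, 9.45, 11.2 and 7.62 CPM in CNO input. In vehicle mice Sox9 had 138, 122, 147 and 116 CPM in IP, against 12.6, 10.3, 11.9 and 11.6 CPM in input. The IP and input libraries did not overlap, and CNO input replicate 2 stood above the other input libraries. The log2 ratio of Sox9 was 3.35 (SE 0.21, adjusted p = 6.87e-07) in CNO mice and 3.50 (SE 0.09, adjusted p = 2.49e-09) in vehicle mice, which placed it at rank 15 of 15801 genes and rank 8 of 15903. Rorb, a nuclear receptor, had 456, 523, 546 and 532 CPM in CNO IP, against 66.0, 36.8, 46.9 and 46.0 CPM in CNO input. In vehicle mice it had 221, 223, 226 and 197 CPM in IP, against 22.4, 22.5, 23.9 and 17.4 CPM in input. Its IP libraries were all above its input libraries, with log2 ratios of 3.42 (SE 0.15, rank 13) in CNO mice and 3.34 (SE 0.10, rank 14) in vehicle mice. Within single mice the Rorb ratio of IP over input was 6.91 to 14.2 after CNO and 9.46 to 11.3 after vehicle. The lowest of these was in CNO replicate 2. The input library of that replicate had the highest summed astrocyte markers of the input libraries (4233 CPM, against 3350 to 3487 CPM in the other CNO inputs). A link between the marker sum and the Rorb ratio was not tested.

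The 3 NFI factors, which bind DNA as dimers of one family, were spread over a wider range. Nfia had log2 ratios of 2.31 (SE 0.22) in CNO mice and 2.69 (SE 0.08) in vehicle mice, Nfib 1.65 (SE 0.21) and 1.97 (SE 0.09), and Nfix 1.62 (SE 0.15) and 1.86 (SE 0.06). Nfic, the remaining family member, stood at 0.77 in CNO mice and 1.22 in vehicle mice, below the other NFI genes. Sox2 had 2.00 (SE 0.07) and 2.17 (SE 0.10), Lhx2 2.31 (SE 0.07) and 2.47 (SE 0.13), and Zbtb20 2.13 (SE 0.12) and 2.14 (SE 0.10), the CNO mice given first in each pair. Pax6, the least abundant of the set per length, had 1.50 (SE 0.12) in CNO mice and 2.03 (SE 0.20) in vehicle mice. Of the relatives, Sox10, of oligodendrocytes, stood at 1.42 in CNO mice and 1.30 in vehicle mice, Rora at 0.74 and 1.13, and Sox8 at 0.06 (adjusted p = 0.605) and 0.52. Relatives known from other lineages were not all below the set: the interneuron gene Lhx6 stood at 1.70 in CNO mice, above Nfib, Nfix and Pax6, and the endothelial gene Sox7 at 2.48, above 7 of the 9 factors. In vehicle mice Lhx6 stood at 1.78 and Sox7 at 1.06. Sox7 had a mean of only 1.00 CPM, and of 10 endothelial factors 7 were lower and 2 higher in IP of CNO mice. Sox21, a SOX repressor of neural progenitors, stood within the range of the set at 2.66 in CNO mice and 2.55 in vehicle mice.

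**Figure D2:**
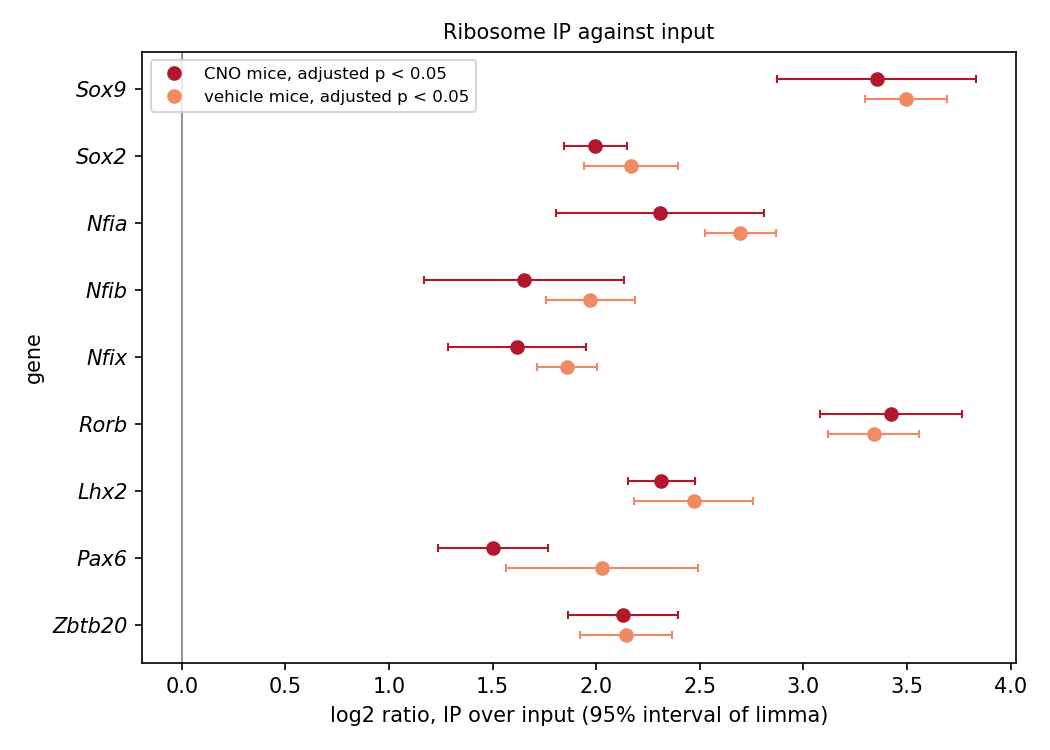
Log2 ratio of IP over input for each factor in CNO mice (upper point) and vehicle mice (lower point) with 95% intervals of limma, 4 libraries per group. The ratios run between 1.50 for Pax6 in CNO mice and 3.50 for Sox9 in vehicle mice, and no interval reaches 0.

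The second comparison asks what CNO changed on the captured ribosomes. Rorb rose 2.37-fold, Pax6 fell to 0.548 of its vehicle level, and Sox2, Nfib, Lhx2 and Nfia fell by smaller amounts. Sox9, Nfix and Zbtb20 did not pass. The set thus had 1 factor higher and 5 lower, with a median log2 ratio of -0.25. Over all 15598 genes 10.2% were called higher and 7.07% lower, with a median of -0.01. With upper quartile scaling 40.0% of all calls were higher and with library totals alone 44.6%, against 59.2% as deposited, and under both Sox9 was called lower as well. The 10 astrocyte markers had a median of -0.09, with 2 lower in limma and 2 by limma-voom. Higher ones numbered 0 in limma, 0 at an unadjusted p under 0.05 and 0 by limma-voom. Summed CPM of the astrocyte markers overlapped between the injections.

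Rorb had 456, 523, 546 and 532 CPM in CNO IP, against 221, 223, 226 and 197 CPM in vehicle IP. The lowest CNO library was above all vehicle libraries. The log2 ratio was 1.24 (SE 0.07, adjusted p = 3.62e-06), and 312 of 15598 genes had a ratio at or above it. Leaving out any library kept it between 1.20 and 1.30. Rora, the paralogous receptor, had 144, 155, 139 and 127 CPM in CNO IP, against 192, 201, 181 and 176 CPM in vehicle IP. The groups did not overlap in the other direction, and Rora fell by 0.41 on the log2 scale (SE 0.07, adjusted p = 0.00302).

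Pax6 had 10.6, 12.01, 11.9 and 13.5 CPM in CNO IP, from 554 to 685 reads, against 22.7, 21.4, 24.7 and 18.8 CPM in vehicle IP, from 1024 to 1314 reads. All CNO libraries were below all vehicle libraries. Pax6 fell by 0.87 on the log2 scale (SE 0.10, adjusted p = 0.000354). Of 15598 genes 123 had a ratio at or below this one. The antisense gene Pax6os1 had at most 0.333 CPM in any library, and it was not tested.

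Lhx2 and Sox2 come next. Lhx2 had 69.7, 71.1, 63.8 and 73.4 CPM in CNO IP, against 93.5, 92.5, 106 and 78.7 CPM in vehicle IP. Its CNO libraries all lay below the vehicle libraries, and it fell by 0.41 (SE 0.09, adjusted p = 0.0108). Sox2 had 154, 142, 150.3 and 144 CPM in CNO IP, against 208, 182, 204 and 172 CPM in vehicle IP. The groups did not overlap, and Sox2 fell by 0.37 (SE 0.07, adjusted p = 0.00515). The host transcript Sox2ot had a log2 ratio of -0.23 (SE 0.16, adjusted p = 0.406) that did not pass.

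Among the NFI factors Nfib had 163, 162, 152 and 179 CPM in CNO IP, against 202, 199, 213 and 197 CPM in vehicle IP. Again no CNO library reached the vehicle range, and Nfib fell by 0.31 (SE 0.06, adjusted p = 0.00535), but it did not pass when all 16 libraries shared one estimate of the spread (adjusted p = 0.294). Nfia had 113, 121, 107 and 117 CPM in CNO IP, against 142, 139, 144 and 122 CPM in vehicle IP, so that the highest CNO library and the lowest vehicle library almost touched. Nfia fell by 0.25 (SE 0.06, adjusted p = 0.0264). Nfia did not pass in the fit of all 16 libraries (adjusted p = 0.413), nor when replicate 2 or 4 of the CNO IP libraries or 2, 3 or 4 of the vehicle ones was left out (adjusted p up to 0.0856). Nfix had 114, 122, 110.1 and 140.2 CPM in CNO IP, against 136, 123, 144 and 132 CPM in vehicle IP. These groups overlapped, with a log2 ratio of -0.14 (95% interval -0.33 to 0.04, adjusted p = 0.278). Nfic fell by 0.38 (adjusted p = 0.0172), and it missed the threshold in the fit of all 16 libraries (adjusted p = 0.0528) and without CNO IP replicate 4 (adjusted p = 0.0506). With the replicate number as a block, which the data did not show to pair these libraries, Nfia (adjusted p = 0.0741) and Lhx2 (adjusted p = 0.0541) did not pass.

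Sox9 was close to the threshold and Zbtb20 was not. In IP, Sox9 had 104 to 118 CPM after CNO and 116 to 147 CPM after vehicle, groups that overlapped at their ends. Its log2 ratio was -0.24 (SE 0.08, 95% interval -0.42 to -0.06, adjusted p = 0.0739). Without vehicle IP replicate 5, the lowest of its group, the adjusted p of Sox9 was 0.0241, and it was 0.0359 with upper quartile scaling and 0.0300 with library totals alone. Other settings moved Sox9 away from the threshold, with an adjusted p of up to 0.431 among the alternative fits that kept every library. With 1 library left out the adjusted p ran up to 0.193, and the log2 ratio lay between -0.29 and -0.18. Zbtb20 had 172, 187, 172 and 159 CPM in CNO IP, against 178, 151, 171 and 145 CPM in vehicle IP. The groups overlapped, with a log2 ratio of 0.10 (95% interval -0.07 to 0.28, adjusted p = 0.457).

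Markers of other cells were summed in the same libraries, and their part in these results was not tested. Summed CPM of the 4 mural cell markers was 44.7 to 53.8 in CNO IP and 74.6 to 98.7 in vehicle IP, where Pdgfrb fell and the other 3 markers did not pass. The 5 endothelial markers summed to 9.07 to 9.93 CPM in CNO IP and 9.82 to 13.1 CPM in vehicle IP. Of these 0 passed in limma, with 2 lower at an unadjusted p under 0.05 and 0 called by limma-voom. The 5 ependymal markers summed to 171 to 223 CPM in CNO IP and 213 to 309 CPM in vehicle IP, and 0 of them passed in limma, with 1 lower at an unadjusted p under 0.05 and 0 called by limma-voom. The 6 interneuron markers summed to 950 to 1074 CPM in CNO IP and 909 to 1027 CPM in vehicle IP, with 0 past the threshold in limma, 0 at an unadjusted p under 0.05 and 0 by limma-voom. No marker on these lists was at 0 in all libraries of a group.

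**Figure D3:**
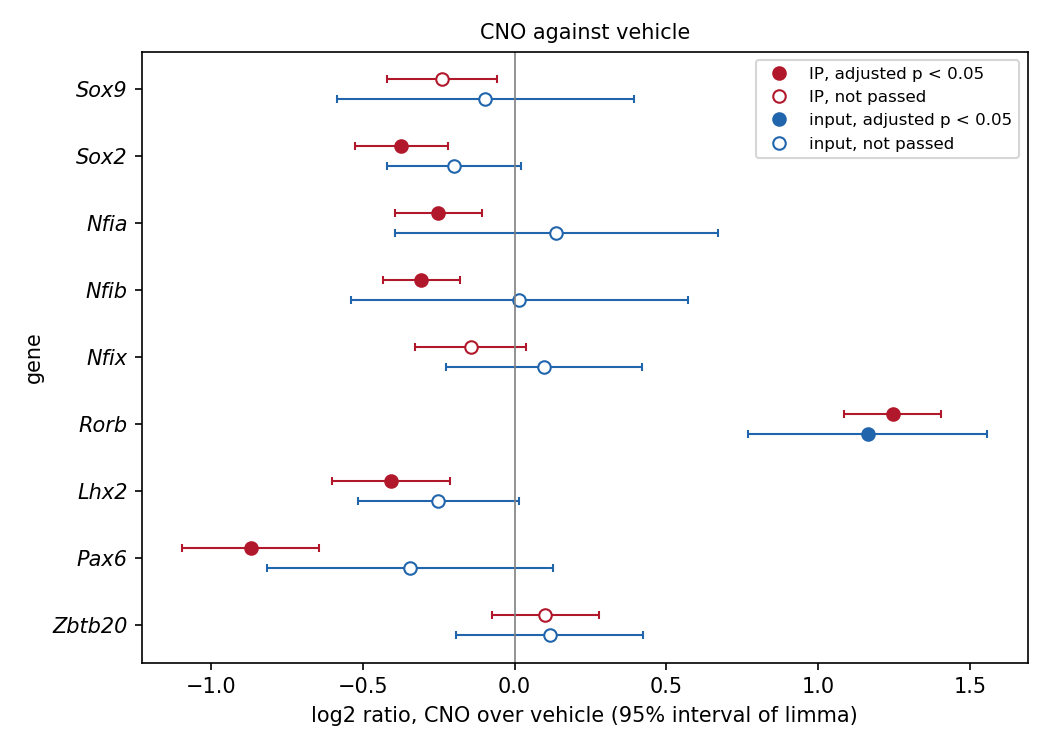
Log2 ratio of CNO over vehicle for each factor in IP (upper, red) and input (lower, blue) with 95% intervals of limma, 4 libraries per group; filled points passed the adjusted threshold of 0.05. Rorb lies near 1.2 in both kinds of RNA, Pax6 at -0.87 in IP, and the input intervals are the wider ones for 9 of 9 factors.

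In whole-lysate input Rorb was the factor that passed. It had 66.0, 36.8, 46.9 and 46.0 CPM in CNO input, against 22.4, 22.5, 23.9 and 17.4 CPM in vehicle input. All CNO libraries were above all vehicle libraries, and Rorb rose by a log2 ratio of 1.16 (SE 0.17, adjusted p = 0.0176), or 2.24-fold. Over all 15825 genes tested here 0.815% were called higher and 0.183% lower. Markers of vessel cells moved in the same libraries. The 5 endothelial markers summed to 53.8 to 66.6 CPM in CNO input and 73.6 to 84.9 CPM in vehicle input, where Cldn5 fell by 0.63 (adjusted p = 0.0347), and the 4 mural cell markers to 88.1 to 102 CPM in CNO input and 108 to 119 CPM in vehicle input, where Pdgfrb fell by 0.52 (adjusted p = 0.0164). The groups did not overlap for either sum, and their part in the Rorb result was not tested. The Rorb ratio was 1.01 without CNO input replicate 2, the library with the highest astrocyte markers, and still passed (adjusted p = 0.00894). It did not pass without CNO input replicate 4 (adjusted p = 0.0603) or 5 (adjusted p = 0.0691) or vehicle input replicate 2 (adjusted p = 0.0696), with the ratio between 1.17 and 1.18.

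The other 8 factors did not pass in input, where limma gave 0 lower, 0 lower also at an unadjusted p under 0.05, and limma-voom 0, and their CNO and vehicle libraries overlapped. The median log2 ratio of the 9 factors was 0.02, beside -0.02 for all genes. Pax6 had 4.68, 3.82, 3.69 and 4.79 CPM in CNO input, against 5.17, 4.77, 8.28 and 4.01 CPM in vehicle input. Vehicle replicate 4 stood apart at the top, and the log2 ratio was -0.34 (95% interval -0.81 to 0.13, adjusted p = 0.662). Sox2 had -0.20 (interval -0.42 to 0.02) and Lhx2 -0.25 (interval -0.51 to 0.01). Sox9 stood at -0.10 (interval -0.59 to 0.39) and Zbtb20 at 0.12 (interval -0.19 to 0.42). The NFI factors were near 0 with broad intervals: Nfia 0.14 (-0.39 to 0.67), Nfib 0.02 (-0.54 to 0.57) and Nfix 0.10 (-0.22 to 0.42). Nfia ran between 17.1 and 36.7 CPM and Nfib between 35.8 and 76.2 CPM in CNO input, against 18.5 to 22.4 CPM and 43.8 to 60.6 CPM in vehicle input, so changes of the size seen in IP were not detectable there.

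Whether CNO acted differently in the 2 kinds of RNA was tested as an interaction over the 16 libraries, taken as independent. IP and input of one mouse pair, and with the mouse as block no factor's call changed. In limma 0 of the 9 factors passed, and 0 by limma-voom, with a median difference of -0.17. At an unadjusted p under 0.05 limma gave Pax6 alone, and over all 16287 genes 4.18% were called higher and 0.571% lower after adjustment, with a median of 0.02. The difference for Pax6, CNO effect in IP minus that in input, was -0.52 (SE 0.25, 95% interval -1.05 to -0.00, adjusted p = 0.335). Without vehicle input replicate 4 it was -0.73 and passed (adjusted p = 0.0239). It did not pass when any other single library was left out, with values up to -0.39 and adjusted p up to 0.543. For Rorb the difference was 0.08 (interval -0.33 to 0.50, adjusted p = 0.954). Rora, which fell in IP, had 80.2 to 90.6 CPM in CNO input and 82.1 to 88.0 CPM in vehicle input, and its difference of -0.39 (SE 0.09, adjusted p = 0.0124) passed. With upper quartile scaling 75.4% of all calls of this test were higher, against 88.0% as deposited, and with library totals alone 77.6%.

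Levels were ordered per length, as CPM per kilobase (kb) of merged exons in GENCODE M21, with means over 4 libraries. In CNO IP Sox2 led with 71.7, followed by Rorb with 46.4 and Sox9 with 26.8, each above the range of the next. Nfix (16.5) and Lhx2 (15.8) overlapped, as did Nfib (11.0) and Nfia (10.5), and Zbtb20 (5.62) and Pax6 (1.03) stood below. In vehicle IP the order was Sox2 with 93.1 and Sox9 with 31.7, then Lhx2 (21.1), Rorb (19.6) and Nfix (18.2) with ranges that overlapped from neighbour to neighbour, then Nfib (13.6) and Nfia (12.5), which also overlapped, and below them Zbtb20 (5.25) and Pax6 (1.87). Rorb thus stood above Sox9 after CNO and below it after vehicle, with no overlap of their ranges in either.

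In CNO input Sox2 had 18.0 CPM per kb and Pax6 0.363, and the 7 factors between them, led by Nfix (5.46) and Rorb (4.42), formed a chain in which each overlapped the next. In vehicle input Sox2 had 20.8, Nfix 5.02 and Pax6 0.475. There Lhx2 (3.82), Nfib (3.48) and Sox9 (2.81) overlapped as neighbours, and so did Rorb (1.94) and Nfia (1.94), above Zbtb20 (1.19). Merged exons hold all annotated isoforms, 30.7 kb for Zbtb20 and 2.06 kb for the single exon of Sox2, so these levels depend on which isoforms are made.

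**Figure D4:**
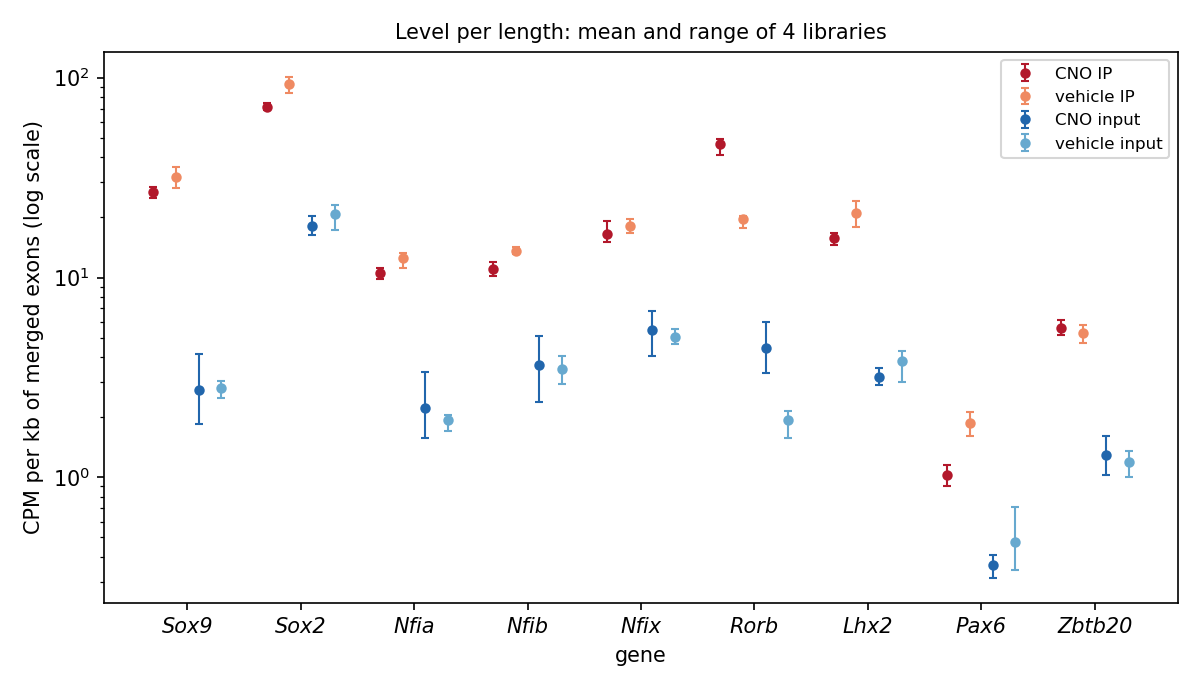
Level of each factor as CPM per kb of merged exons (log scale), mean and range of 4 libraries, with 4 points per gene, IP in red and orange left of input in dark and light blue, and CNO left of vehicle in each pair. Sox2 is at the top of every group and Pax6 at the bottom, and Rorb lies above Sox9 in CNO IP (46.4 against 26.8) and below it in vehicle IP (19.6 against 31.7).

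Relatives of the 9 factors and other transcription factors were counted in the same fits. Over all genes 37.6% were called higher and 37.3% lower in IP than in input of vehicle mice. Of 14 SOX genes 9 were higher and 4 lower in IP than in input of vehicle mice (median log2 ratio 0.88), with Sox21 at 2.55 and the endothelial Sox17 at -3.25. Of the 14 SOX genes 2 rose and 4 fell in IP after CNO (median -0.13), beside 10.2% and 7.07% of all genes. Sox13 fell by 1.03 (SE 0.12, adjusted p = 0.000426) and Sox8, an oligodendrocyte lineage gene, by 0.73 (SE 0.08, adjusted p = 0.000196), while Sox7, an endothelial gene at a mean of 1.00 CPM, rose by 1.18 (adjusted p = 0.011). Sox21 had 54.5, 44.7, 41.0 and 54.2 CPM in CNO IP, against 36.1, 39.5, 40.5 and 32.7 CPM in vehicle IP. The groups did not overlap, and Sox21 rose by 0.38 (adjusted p = 0.0404), but did not pass when any of 6 single libraries was left out (adjusted p up to 0.109), nor with upper quartile scaling (adjusted p = 0.0681), library totals alone (0.0556), the replicate number as a block (0.119) or without the trend and robust settings of limma (0.0639). Of its merged exons 18.8% overlap Gm4675, and 10.6% of those of Sox8 overlap 2810468N07Rik, both on the other strand. Sox10 did not pass (-0.19, adjusted p = 0.621).

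Of 12 NFI, ROR, LHX, PAX and ZBTB relatives tested, 9 were higher and 2 lower in IP than in input of vehicle mice (median 1.03), among them the interneuron gene Lhx6 at 1.78 and Zbtb18 at -0.80. After CNO 4 of them rose and 3 fell in IP (median -0.02), beside 10.2% and 7.07% of all genes. Zbtb16, a zinc finger repressor, rose by 1.02 (adjusted p = 0.0252), which did not pass when any of 4 single libraries was left out (adjusted p up to 0.0645). Zbtb18 did not pass (-0.13, adjusted p = 0.495). In the interaction test Zbtb38, a methyl-CpG-binding repressor, had a difference of 0.89 (adjusted p = 2.75e-06). In input limma called 0 genes of the SOX list and 0 of the list of relatives, and limma-voom 0 of each. Over all genes limma called only 0.815% higher and 0.183% lower in input. At an unadjusted p under 0.05 there were 2 higher and 5 lower SOX genes, and 1 higher and 1 lower relative.

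Of 28 other transcription factors enriched in astrocytes, 26 stood higher in IP than in vehicle input and the other 2 did not pass (median 1.76), with Gli2, of hedgehog signalling, at 3.49. After CNO 8 rose and 7 fell in IP, with a median of -0.02, beside 10.2% and 7.07% of all genes. Rfx4, a factor of ciliary genes and of the dorsal midline, rose by 2.21 (SE 0.08, adjusted p = 2.34e-07), a larger ratio than that of Rorb. In input it rose by 0.89 (SE 0.11, adjusted p = 0.00252), beside Dbx2 as the only other gene of this list that passed there. Dbx2 did not pass when any of 7 of the 8 libraries was left out. The difference of Rfx4 between IP and input was 1.32 (adjusted p = 1.39e-05). Hes5, an effector of Notch signalling, fell by 1.92 in IP (SE 0.39, adjusted p = 0.0104).

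Known targets of Sox9 or NFI factors in glia were 12 of 12 higher in IP than in input of vehicle mice (median 2.68), with the glutamate transporter Slc1a2 at 3.79. In IP after CNO 5 fell in limma and 5 by limma-voom (median -0.18), beside 7.07% of all genes in limma. Rises numbered 0 in limma, 0 at an unadjusted p under 0.05 and 0 by limma-voom. Apcdd1 fell by 0.56 (SE 0.13, adjusted p = 0.016), which did not pass when replicate 4 of the CNO IP libraries, or 2 or 4 of the vehicle ones, was left out (adjusted p up to 0.0563). In input 0 of the 12 passed in limma, beside 0.815% higher and 0.183% lower over all genes. At an unadjusted p under 0.05 there was 1 lower, and limma-voom called 0. Of these targets 7 are also on the astrocyte marker list, and several genes stand in more than 1 list, such as Sox8 and Sox10 in those of SOX and oligodendrocyte genes.

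Factors of other lineages were counted for comparison. Of 16 striatal neuron factors 14 were lower and 2 higher in IP than in input of vehicle mice (median -1.05). After CNO 1 of the 16 rose in IP, beside 10.2% of all genes. This was Meis2, by 0.23, which did not pass with upper quartile scaling (adjusted p = 0.124) or when any of 5 single libraries was left out (adjusted p up to 0.102). Of 9 interneuron factors 7 were higher in IP of vehicle mice (median 1.52). In IP after CNO 0 of them passed in limma, 0 at an unadjusted p under 0.05 and 0 by limma-voom. Of 10 oligodendrocyte lineage factors all were higher in IP of vehicle mice (median 0.92), led by Tcf7l2 at 2.30, and 9 in CNO mice. In IP after CNO 2 of the 10 fell, Sox8 among them, beside 7.07% of all genes. Of 5 ependymal factors all were higher in IP of vehicle mice (median 1.86), with Foxj1 at 2.62, and 4 in CNO mice (median 1.52). After CNO 2 of them fell in IP (median -0.56), and Rfx2 fell by 0.72 (adjusted p = 0.00266).

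Microglial and endothelial factors were mostly lower in IP. In vehicle mice 4 of 6 microglial factors were lower and 1 higher (median -1.51, Spi1 at -4.36). There 7 of 10 endothelial factors were lower and 3 higher (median -2.71, Fli1 at -3.36). In CNO mice 5 microglial factors were lower and 1 higher, and 7 endothelial factors lower and 2 higher. After CNO, Runx1, also of microglia, rose in IP by 1.27 (adjusted p = 0.0259, not passed when any of 4 single libraries was left out, up to 0.0724). Of the endothelial list 2 rose and 1 fell in IP, near the shares of 10.2% and 7.07% over all genes. These were Sox7, given above, Epas1, a hypoxia-inducible factor subunit named after its value was seen, which rose by 0.57 (adjusted p = 0.000887), and Lef1, which fell by 0.89 (adjusted p = 0.00129). Of 8 neural stem cell and neuroblast genes 3 were higher and 3 lower in IP of vehicle mice. These counts lie near the shares over all genes, 37.6% and 37.3%. After CNO the filament gene Nes rose in IP by 1.66 (SE 0.18, adjusted p = 0.00032), with a difference from input of 1.41 (adjusted p = 0.000474). In input limma called 0 genes of the transcription factor lists of other lineages and of the stem cell list, and limma-voom 0. Over all genes limma called only 0.815% higher and 0.183% lower in input. At an unadjusted p under 0.05 there were 3 lower oligodendrocyte lineage genes, 1 higher microglial, 1 lower endothelial, 1 lower ependymal and 1 higher neural stem cell gene, and 0 striatal neuron or interneuron genes.

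**Figure D5:**
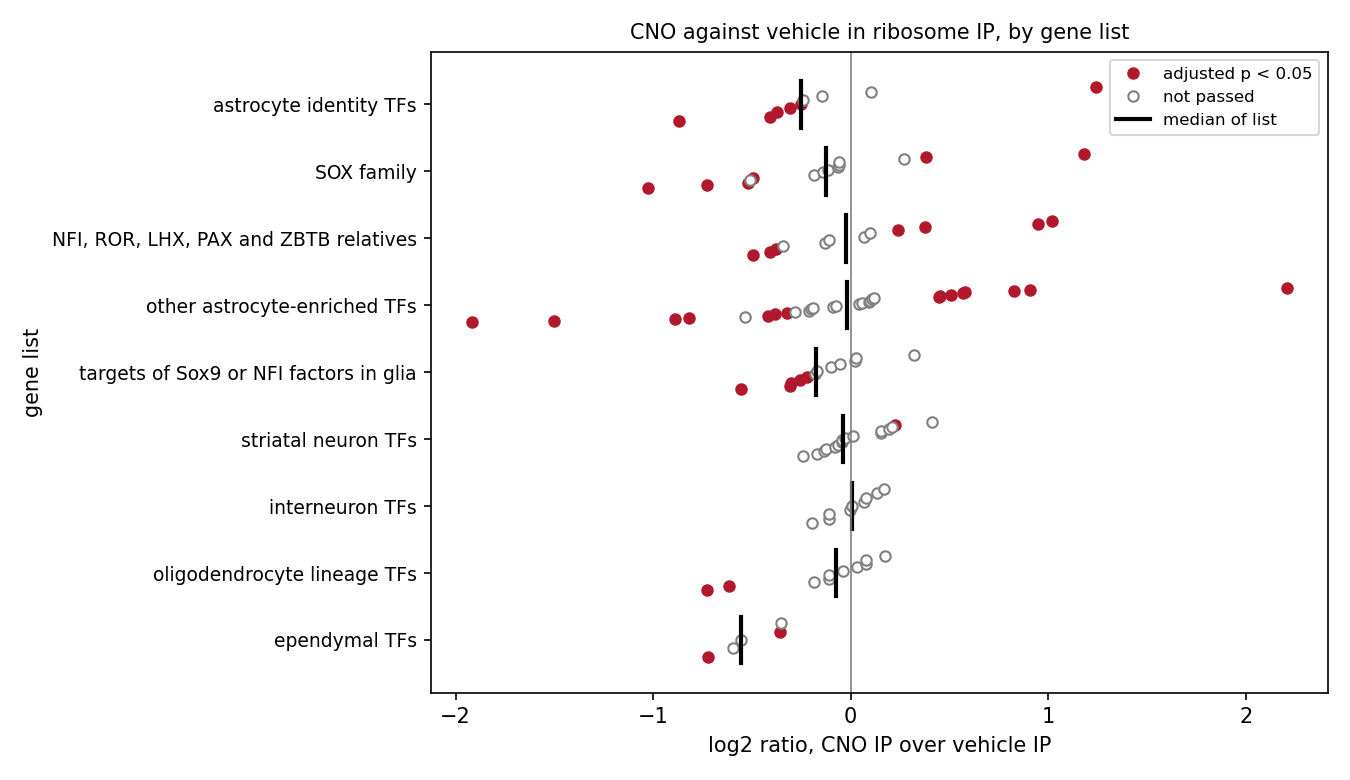
Log2 ratio of CNO IP over vehicle IP for each gene of the astrocyte identity set and of 8 comparison lists, with filled points past the adjusted threshold of 0.05 and a bar at each list's median. The identity set has Rorb at 1.24 and Pax6 at -0.87 as its ends and a median of -0.25, and Rfx4 at 2.21 is the highest point of the plot.

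The genes whose log2 CPM ran most like that of single factors over the 16 libraries were sought among 10446 genes with a mean of at least 10 CPM. All of these correlations contain the split between IP and input, which the libraries share, and they are given as a description. Sox9 was closest to Notch1 (Pearson r 0.999), a receptor of neural progenitors and astrocytes, and Sox2 to Mmd2 (0.996). Nfia was closest to Mtss1l (0.996), Nfix to Phyhipl (0.996) and Zbtb20 to Tacr1 (0.998). Lhx2 was closest to the glutamate receptor subunit Grin2c (0.997) and to the glutamine synthetase gene Glul (0.996). Rorb and Pax6, the factors with the highest and the lowest CNO ratio in IP, had the lowest top values: Rorb was closest to Sh3pxd2b (0.993) and the coagulation factor receptor F3 (0.991), and Pax6 to Gas1 (0.988).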

How the data were processed

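Ribosome-bound and whole-lysate RNA of striatum was measured in 16 libraries. Per the labels' protocols, RNA was purified with a column kit that removes DNA, and 100 ng was enriched for mRNA and made into libraries read from both ends. By the submitters' processing notes, bcl2fastq 2.17, STAR, HTSeq, limma and mm10 were used; the sources used here give no annotation, strand setting or filter. The authors deposited log2 CPM, with a prior count of 0.25. Their normalized library sizes were 0.88 to 0.932 times the reads in IP and 1.08 to 1.14 times the reads in input. Whole reads were recovered for 100% of values within 0.01 read. Each file held 17098 lines, of which 1 repeated line was dropped.

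The main test was limma 3.58.1 in R 4.3.3 (trend and robust, Benjamini-Hochberg over all genes passing the filter), because the deposited unit is log2. The filter asked for 15 reads in all and the CPM of 10 reads in the median library in at least 4 libraries. The method was tested on simulated data. Alternatives were limma-voom on the recovered reads, other scalings, a prior count of 2, no filter, plain variance settings, blocks, one fit of 16 libraries and leaving out each library. IP and input libraries pair by mouse code: their deviations from group means correlated at 0.210 to 0.572 within mice. The members, lists, named genes and tests were chosen with earlier results of these data known. Named from each list were the called genes with the largest increase and decrease and the most abundant gene that did not pass, with relatives of the members. Promoters are from RefSeq (GRCm38.p6), and gene positions and exon lengths from GENCODE M21. A few named-gene results are not reported here.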

Additional observations from a re-analysis of the deposited data

Results flagged for a closer look

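Rorb in vehicle IP replicate 5 stood below the other vehicle IP libraries, at 197 CPM against 221 to 226 CPM, and its gap was 0.85 of the group's range, above Dixon's 95% limit for 4 samples. In all 56 groups were tested in this way, 14 genes in 4 groups each, and chance flags about 1 in 20 groups.

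The CNO effect on Rora differed between IP and input, with a difference of -0.39 (SE 0.09, adjusted p = 0.0124, limma interaction over 16 libraries). Its log2 ratio was -0.41 in IP, where the CNO libraries were lower in 4 of 4, and -0.02 in input.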

How the results depend on the processing

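All 9 factors were called higher in IP under each of the 16 alternatives in CNO mice and in vehicle mice. Of 144 factor values per comparison under the alternatives, 132 kept direction and side of the threshold for CNO against vehicle in IP, 9 no longer passed and 3 newly passed; in input 134 kept them, 3 no longer passed and 7 changed sign. Of 207 interaction values 198 kept them, 1 newly passed and 8 changed sign. The cause of these changes was not tested, except that a fit without a library has fewer samples.

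In IP, 1102 genes fell after CNO. This count was 1907 with upper quartile scaling, 717 with the replicate block and 596 to 1213 with 1 library left out (726 without CNO replicate 4, 596 without vehicle replicate 2, 716 without vehicle replicate 4). Of the factors 5 fell, 3 with the replicate block, 3 with all 16 libraries in one fit and 4 to 6 with 1 library left out. In input, 29 genes fell; this was 7 with the replicate block, 105 with all 16 libraries and 4 to 27 with 1 library left out. There 129 genes rose, 85 to 155 with 1 library left out, and 1 factor rose, against 0 to 1. The interaction called 93 genes lower, 180 with upper quartile scaling, 165 with library totals alone, 222 with the mouse as replicate block and 45 to 109 with 1 library left out; for the factors this was 0 in limma and 0 by limma-voom, against 0 to 1 with 1 library left out.

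The replicate numbers did not pair CNO with vehicle libraries (correlations of -0.188 to 0.221 in IP and -0.373 to 0.000666 in input). With the mouse as block, where mice pair IP with input, no factor's call changed.

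With 1 library left out the input log2 ratio was -0.32 to 0.072 for Sox9, -0.084 to 0.28 for Nfia, -0.17 to 0.20 for Nfib, -0.015 to 0.23 for Nfix and -0.079 to 0.18 for Nfic. The interaction was -0.31 to 0.076 for Sox9, -0.044 to 0.24 for Rorb, -0.12 to 0.10 for Zbtb20 and -0.069 to 0.27 for Sox10. Sox8 in IP against input of CNO mice (0.06) was -0.16 with upper quartile scaling, -0.25 with library totals alone and -0.0074 to 0.13 with 1 library left out. Pax6 had the fewest reads of the 9 factors, 130 to 353 per input library. Its SE for CNO against vehicle in input was 0.21, within the range of 0.10 (Sox2) to 0.24 (Nfib) of the set. The part of read number in these SE was not tested.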
